A study of Mus musculus with 6 samples.

Results

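Innate lymphoid cells type 2 (ILC2) are described here through 7 genes: Rora, Icos, Klrg1, Arg1, Areg, Il13 and Il5. They were chosen by name as genes known from ILC2s, and all 7 were found among the 24318 gene symbols of the deposited tables, each in a locus of its own. The 6 RNA-seq libraries came from mouse thymocytes sorted at the double-negative 1 (DN1) stage, at 5 to 8 weeks of age. The sort kept cells that were positive for CD44 and negative for TCRb, CD8a, CD25 and a lineage mixture. Of these, 3 were WT and 3 were labelled Tle134 mutant (genotype Tle134-deficient), read here as lacking Tle1, Tle3 and Tle4, and the latter are called mutant-labelled below. Alleles, any Cre driver, strain and the lineage antibodies are not stated in the labels. The labels do not tell whether replicates were separate animals, so p-values measure the spread between libraries, which may be technical. The study asked what the Groucho/Tle corepressors do in early thymic progenitors.

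ILC2s are lymphocytes without a rearranged antigen receptor. They respond to the epithelial cytokines IL-33, IL-25 and TSLP, and they release IL-5, IL-13 and amphiregulin in type 2 immunity and tissue repair. They arise from lymphoid progenitors under transcription factors that early T cells also use, among them GATA3, TCF-1 and BCL11B, and they need RORα. Mature ILC2s commonly carry CD25, the product of Il2ra, so the CD25-negative gate used here would remove such cells.

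Values are FPKM (fragments per kilobase of a transcript and per mapped total of a library), which allows levels of different genes to be compared. Where 3 values of a group are given, they stand in the order of replicates 1 to 3. Each value is deposited with a lower and an upper bound. Read as 2 SD of a fragment count either way, these bounds imply that loci with a gene symbol held 1.42e+06 to 4.34e+06 fragments per library. The targeted genes went against the labels. Tle1 gave 1.37, 1.19 and 3.61 FPKM across the 3 WT libraries and 11.5, 11.3 and 11.1 across the mutant-labelled ones (limma adjusted p = 0.0954). Tle3 and Tle4 also had higher means there (adjusted p = 0.234 and 0.726). Since reads outside a deleted exon still count toward a locus, this checks the labels only in part, and every direction below follows the labels. B-cell markers also moved with the labels. All 10 were higher in each mutant-labelled library than in any WT library, as were 8.67% of all genes tested. By limma 9 of the 10 were called higher at an adjusted p under 0.05, beside 0.642% of all genes tested. Their summed level was 34.5 to 108 FPKM in the WT libraries and 582 to 966 in the mutant-labelled libraries. Mutant-labelled replicate 3 stood apart in eosinophil genes. The basophil genes did not share a pattern: Prss34 was highest there, at 139 FPKM, but Mcpt8 was at 16.3 FPKM against 24.7 in WT replicate 3. The summed level of 13 mast cell, basophil and eosinophil markers was 1551 FPKM there, 2.18 and 38.6 FPKM in mutant-labelled replicates 1 and 2, and 56.2 to 294 FPKM in WT. The eosinophil granule gene Prg2 alone gave 1242 FPKM of that sum. Some mast cell genes of the list went the other way in that library. Cpa3 was at 21.5 FPKM, Mcpt4 at 0.0921 FPKM and Tpsb2 and Cma1 at 0, each under all WT values. Ms4a2 and Fcer1a of the same list did not follow them. Ms4a2 was at 30.1 FPKM in mutant-labelled replicate 3, against 0.921 to 4.66 in WT. Fcer1a was at 1.06 FPKM there, against 0 to 7.18 in WT.

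Of the 7 genes, Icos and Rora were an expressed pair, and Arg1 varied between 0 and 3.11 FPKM. Klrg1, Areg, Il13 and Il5 were at or near the limit of detection. Icos was lower in every mutant-labelled library than in any WT library, but the difference did not pass the test over all genes. Rora and Arg1 overlapped between the groups. Klrg1, Areg, Il13 and Il5 were too low to be tested. The limma test covered the 11063 genes that reached 1 FPKM in at least 3 libraries. It called 83 of them at an adjusted p under 0.05 (0.75%), 71 higher (0.642%) and 12 lower (0.108%) in the mutant-labelled libraries. Of the 7 genes 3 were tested and 0 were called. At an unadjusted limma p under 0.05 there was 1, Icos, beside 1109 of the 11063 genes tested. Without a variance trend or robust step limma also gave Icos, beside 1132 of all genes tested.

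**Figure D1:**
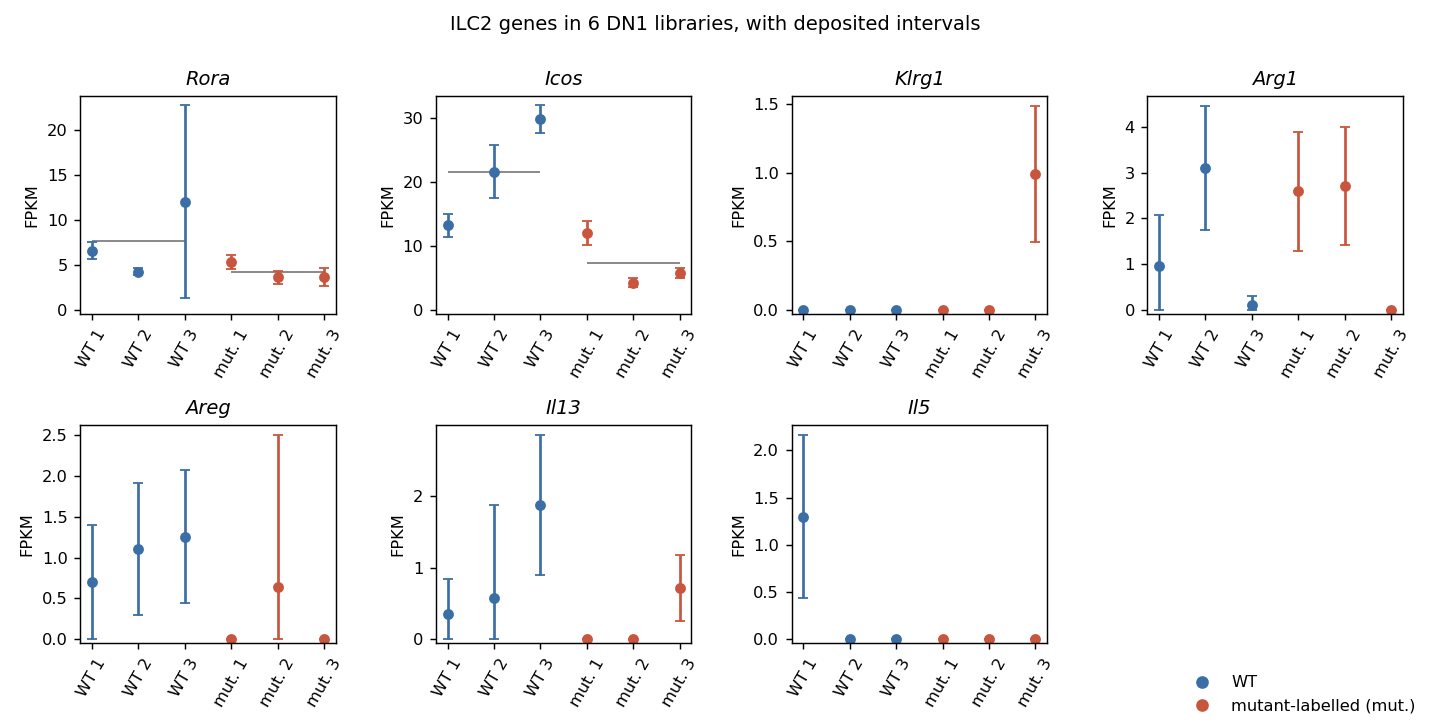
FPKM of the 7 ILC2 genes in each library, WT in blue and mutant-labelled in red. Bars are the deposited lower and upper bounds, and grey lines are group means, drawn only where no library is at 0. Icos separated the groups by the narrow gap between WT replicate 1 (13.2) and mutant-labelled replicate 1 (12.0), while Il5 was above 0 in WT replicate 1 only.

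Rora encodes the nuclear receptor RORα, a transcription factor that ILC2 development requires. Its locus spans positions 68501593 to 69236053 of mouse chromosome 9 (build mm9, as are all positions of loci here). It reached 6.57, 4.22 and 12.0 FPKM (WT) and 5.31, 3.62 and 3.65 FPKM (mutant-labelled). The groups overlapped, since mutant-labelled replicate 1 lay above WT replicate 2. Means were 7.6 ± 4.0 and 4.19 ± 0.968 FPKM (SD, n = 3 each), and the log2 difference was -0.64 ± 0.49 (SE, limma adjusted p = 0.758). The highest value is also the least certain one: the deposited interval in WT replicate 3 runs from 1.32 to 22.7 FPKM, 89.0% of the value on either side, against 9.38% to 26.8% in the other libraries. Without that library the log2 difference was -0.29 (adjusted p = 0.891).

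Icos encodes an inducible costimulatory receptor of activated T cells, regulatory T cells and ILC2s. Its locus lies on chromosome 1 from 61034758 to 61057164. It was the most abundant of the 7 in every library, at 13.2, 21.6 and 29.9 FPKM in the WT libraries and at 12.0, 4.26 and 5.75 in the mutant-labelled libraries. All 3 mutant-labelled values lay under the lowest WT value, as they did for 6.56% of all genes tested. The edges of the groups were close: the deposited interval of WT replicate 1 (11.4 to 15.0 FPKM) overlaps that of mutant-labelled replicate 1 (10.2 to 13.9 FPKM). Group means were 21.6 ± 8.33 and 7.35 ± 4.12 FPKM (SD, n = 3 each), 2.93 times higher in WT. The log2 difference of -1.47 ± 0.49 (SE) had an unadjusted p of 0.0131, rank 508 of the 11063 genes, and a limma adjusted p of 0.284. It ran from -1.85 to -1.20 when single libraries were left out (adjusted p = 0.276 to 0.59). Within the ranking of all genes of a library Icos stood at the 86.5th to 92.4th percentile in WT, at the 82.3rd in mutant-labelled replicate 1, and at the 67.7th and 68.9th in replicates 2 and 3.

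Of 8 T-cell markers tested 0 were called, with 5 differences below 0 and 3 above. Below 0 were Cd3e, Cd3g, Cd3d, Cd5 and Cd28, and above 0 were Ccr7, Cd4 and Cd8b1. Over all genes tested 47.3% lay below 0. Trac, Trbc1 and Trbc2, also on the list, were not found among the gene symbols. The 3 tested markers with the smallest p did not share a direction. Ccr7, a lymph node homing receptor, measured 5.35, 2.75 and 9.11 FPKM in the WT libraries, against 18.9, 30.3 and 11.3 in the mutant-labelled ones (log2 difference 1.67, limma adjusted p = 0.240). The B-cell marker list moved the same way as Ccr7, and the part of B cells in its values was not tested. Cd3g, a chain of the T-cell receptor complex, had a log2 difference of -1.48 (adjusted p = 0.595). Cd28, which encodes a costimulatory receptor related to ICOS, measured 5.11, 20.3 and 16.8 FPKM in the WT libraries, against 4.16, 2.85 and 2.08 in the mutant-labelled ones (log2 difference -1.75, limma adjusted p = 0.256). The ratio of Icos to Cd28 was 2.58, 1.07 and 1.77 in WT and 2.89, 1.49 and 2.76 in the mutant-labelled libraries, so these ranges overlapped. Relative to Cd3e, a signalling chain of the T-cell receptor complex, Icos was at 0.168, 0.591 and 0.338 in WT and at 0.169, 0.170 and 0.359 in the mutant-labelled libraries. Both ratios were chosen after the values were seen. The summed level of the T-cell marker list was 138 to 595 FPKM in the WT libraries and 120 to 269 in the mutant-labelled libraries. In bulk RNA fewer cells of a type and less RNA per cell cannot be told apart, and the part of T-cell content in the Icos values was not tested.

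Arg1 encodes arginase 1, an arginine-degrading enzyme of ILC2s and of alternatively activated macrophages (chromosome 10, 24635013 to 24647276). It gave 0.951, 3.11 and 0.0979 FPKM across the 3 WT libraries and 2.59, 2.72 and 0 across the mutant-labelled ones. Each group thus held both high and near-zero libraries, and the spread within a group exceeded the difference between them (log2 difference 0.20 ± 0.68, limma adjusted p = 0.978). The direction turned to -0.25 without WT replicate 3, to -0.10 without mutant-labelled replicate 1 and to -0.12 without mutant-labelled replicate 2. Of 10 monocyte, macrophage and neutrophil markers tested 0 were called. Adgre1, which encodes the macrophage antigen F4/80, measured 0.732, 1.49 and 12.2 FPKM in the WT libraries, against 14.3, 7.54 and 23.4 in the mutant-labelled ones. Mrc1, a mannose receptor of macrophages, gave 2.34, 1.11 and 4.48 FPKM across the 3 WT libraries and 0.955, 1.88 and 0.194 across the mutant-labelled ones. Retnla and Chil3, other genes of alternatively activated macrophages, were listed at 0 in all 6 libraries and in 5 of 6 respectively. The part of macrophages in the Arg1 values was not tested.

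Klrg1 encodes an inhibitory receptor for cadherins that marks mature ILC2s and some NK and effector T cells (chromosome 6, 122220619 to 122232851). It was listed at 0 in 5 libraries and at 0.993 FPKM, with bounds of 0.497 and 1.49, in mutant-labelled replicate 3. That library was also highest in the eosinophil gene Prg2 and in Gzmb, a granzyme gene of cytotoxic and other granule-bearing cells. Gzmb (118 FPKM) and Gzma (31.6 FPKM) made up nearly all of its summed NK and ILC1 markers (151 FPKM against 34.7 to 125 FPKM in the other libraries). Klrd1 and Fasl, 2 other genes of that list, were under all WT values in each of the 3 mutant-labelled libraries. Klrd1 was at 0, 1.52 and 0.659 FPKM there, and Fasl at 0, 0 and 0.339 FPKM. Eomes was at 0.0591, 0.142 and 0 FPKM, and Ncr1 was listed at 0 in all 3. Klrb1c was at 0.470 FPKM in mutant-labelled replicate 3 and listed at 0 in mutant-labelled replicates 1 and 2. The part of other cells in the Klrg1 value was not tested. A listing at 0 in all WT libraries with signal in some mutant-labelled library was seen for 1077 of the 23401 genes left after symbols with a shared locus were joined.

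The 3 secreted factors were each near the limit of detection, with more listings above 0 in WT. Areg encodes amphiregulin, a growth factor that binds the epidermal growth factor receptor (chromosome 5, 91568641 to 91577458). It reached 0.698, 1.10 and 1.26 FPKM (WT) and 0, 0.642 and 0 FPKM (mutant-labelled). The groups did not overlap by value, with the mutant-labelled values lower. That was so for 6.56% of the genes tested, which do not include Areg. The interval of mutant-labelled replicate 2 runs from 0 to 2.50 FPKM and covers all 3 WT values. Il13, whose product drives mucus production and alternative activation of macrophages, measured 0.347, 0.580 and 1.87 FPKM in the WT libraries, against 0, 0 and 0.718 in the mutant-labelled ones, which overlap.

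Il5, the eosinophil growth and survival factor, was at 1.30 FPKM in WT replicate 1, with bounds of 0.438 and 2.16, and listed at 0 in the other 5 libraries. For 2546 of the 23401 genes all mutant-labelled libraries were listed at 0 and at least 1 WT library was not. The summed level of the 3 factors was 2.34, 1.68 and 3.13 FPKM in the WT libraries and 0, 0.642 and 0.718 in the mutant-labelled libraries. Between 32.3% and 45.7% of genes were listed at 0 in a library, and such a value can be a failed estimate. When every gene above 0 in any library was tested, limma gave log2 differences of -0.77 ± 0.43 for Areg, -0.61 ± 0.48 for Il13, -0.40 ± 0.31 for Il5 and 0.33 ± 0.26 for Klrg1 (SE, adjusted p = 0.746 for each).

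Il13 and Il5 lie 86091 bases apart in the type 2 cytokine locus of chromosome 11 (53444825 to 53448204 and 53534296 to 53538605). Their promoters are shown because Tle proteins do not bind DNA and reach it through factors such as Tcf/Lef and Runx. The 250 bases before each start site, from RefSeq (GRCm38.p6, a later build than that of the values), were searched on both strands for CTTTGAA or CTTTGAT (Tcf/Lef) and TGTGGTT or TGTGGTC (Runx). The same search covered the Gata words, which read AGATAAG or else TGATAAG, because GATA3 acts in ILC2s, and the Ror half-site, spelled AGGTCA, because of Rora. Capitals mark the matches.
Il13, chr11:53634703-53634952, minus strand: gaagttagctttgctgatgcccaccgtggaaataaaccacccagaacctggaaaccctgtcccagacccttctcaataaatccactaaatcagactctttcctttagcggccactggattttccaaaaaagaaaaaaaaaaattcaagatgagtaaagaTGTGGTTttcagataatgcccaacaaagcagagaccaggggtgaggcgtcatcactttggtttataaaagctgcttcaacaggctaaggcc
Il5, chr11:53720544-53720793, plus strand: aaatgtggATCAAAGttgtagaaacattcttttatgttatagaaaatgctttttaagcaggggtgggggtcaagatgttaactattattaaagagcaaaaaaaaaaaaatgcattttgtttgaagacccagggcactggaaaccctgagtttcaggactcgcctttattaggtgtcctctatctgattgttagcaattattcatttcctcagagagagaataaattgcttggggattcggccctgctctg
The Il13 window holds 1 Runx word, 91 bases before the start, and the Il5 window 1 Tcf/Lef word, on the reverse strand 242 bases before the start. Of 32851 RefSeq promoter windows of this length, 7.67% hold a Runx word, 7.48% a Tcf/Lef word, 4.68% a Gata word and 14.0% a Ror half-site. No Gata word or Ror half-site was found in either window, and the windows of Rora and Areg, the other members with an entry, hold none of the 4 motifs. A match is a description of the letters and no measure of binding.

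Ligands and receptors of some of the 7 gene products, with a few related genes, were examined next. Of 7 such genes tested, 1 rose, 0 fell and 6 did not pass, beside 0.642% of all genes tested called higher and 0.108% lower. Icosl, the ICOS ligand of B cells and other antigen-presenting cells, rose, with 6.54, 1.86 and 2.09 FPKM in the WT libraries and 48.2, 84.0 and 21.1 in the mutant-labelled libraries (log2 difference 3.48 ± 0.59, limma adjusted p = 0.0353). All mutant-labelled values lay above all WT values, as for 8.67% of genes tested, in the direction opposite to Icos. The call was kept without mutant-labelled replicate 3 (adjusted p = 0.0384) and lost without any other single library (0.086 to 0.138), with a replicate block (0.0767), with libraries rescaled by median ratios (0.0638), without a filter on low values (0.0936) and with limma without trend and robust (0.0501). Il5ra, the IL-5 receptor chain of eosinophils and some B cells, gave 0, 0.171 and 0.664 FPKM across the 3 WT libraries and 4.02, 7.94 and 15.3 across the mutant-labelled ones, without overlap but short of the threshold (log2 difference 2.85 ± 0.56, adjusted p = 0.0574). The B-cell marker list moved the same way as both. The eosinophil granule gene Epx, at 0, 3.83 and 68.6 FPKM in mutant-labelled replicates 1 to 3, was highest in the library where Il5ra was highest. The part of B cells and eosinophils in these values was not tested.

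Odc1, which makes polyamines from the product of arginase, reached 33.8, 34.2 and 44.1 FPKM (WT) and 165, 57.3 and 65.7 FPKM (mutant-labelled; adjusted p = 0.456). Egfr, which encodes the receptor of amphiregulin, measured 5.56 ± 5.55 and 1.37 ± 0.903 FPKM (SD, n = 3 each). Il13ra1, a chain of the IL-13 receptor, measured 1.26 ± 0.749 and 2.52 ± 1.74 FPKM. The decoy receptor gene Il13ra2, the ILC2-activating cytokine gene Il25 and the second arginase gene Arg2 were listed at 0 in all 6 libraries.

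**Figure D2:**
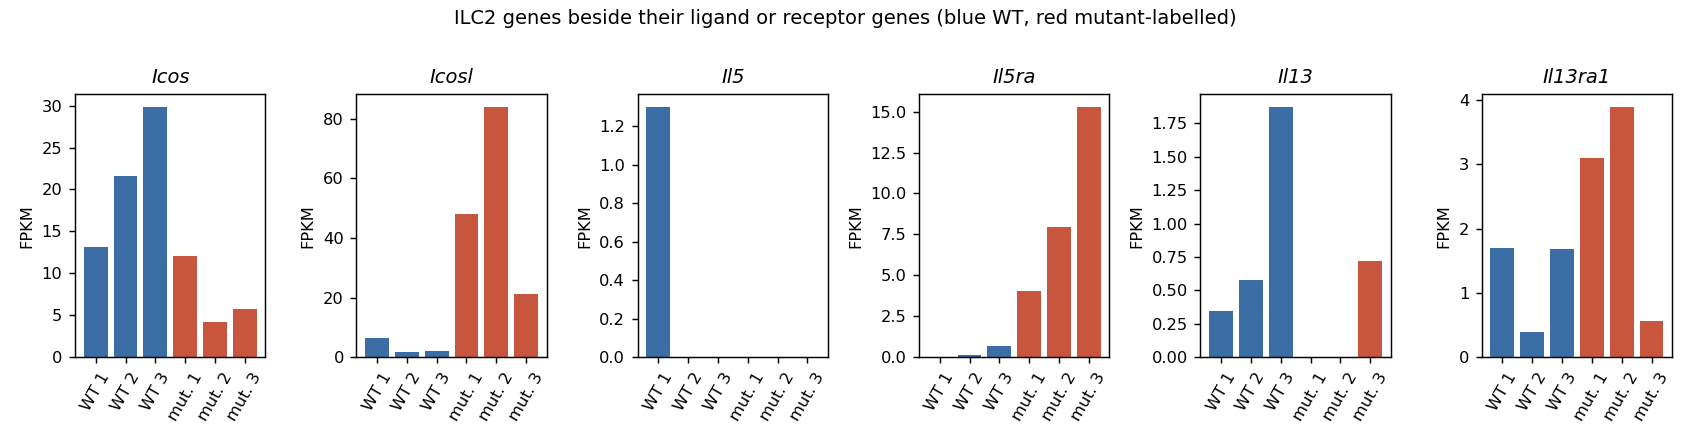
FPKM in each library of Icos beside its ligand gene Icosl, and of Il5 and Il13 beside the receptor genes Il5ra and Il13ra1, each panel on its own linear axis from 0. The mutant-labelled values of Icosl (21.1 to 84.0) and Il5ra (4.02 to 15.3) lay above all WT values, and those of Icos (4.26 to 12.0) below them.

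A wider set of 55 ILC2-associated genes was grouped by role: transcription factors, alarmin and cytokine receptors, other effectors, lipid and neuropeptide receptors, and surface genes. Tox fell and Il9r rose in the mutant-labelled libraries, and the other genes tested did not pass. Of all genes tested, 0.108% were called lower and 0.642% higher. Among 43 genes tested here, 24 differences lay below 0 and 19 above, beside 47.3% below 0 over all genes. The median of the 43 differences was -0.51 on the log2 scale, beside 0.04 over all genes tested. It was -0.04 without WT replicate 3, -0.21 without mutant-labelled replicate 3 and -0.30 without mutant-labelled replicate 2. Over all genes the same runs gave medians of 0.19, -0.06 and 0.10.

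Among 12 transcription factors tested, 1 fell and 0 rose, beside 0.108% of all genes tested called lower and 0.642% higher. Tox, a nuclear factor needed by innate lymphoid and T cells, fell from 32.0, 31.2 and 43.5 FPKM to 5.71, 4.81 and 1.49 FPKM (log2 difference -2.98 ± 0.47, limma adjusted p = 0.0279). The call was lost when any single library was left out (adjusted p = 0.0506 to 0.126), with a replicate block (0.0767) and without a filter on low values (0.0861). Gata3, the factor that sets ILC2 and Th2 identity, measured 61.1, 27.9 and 56.9 FPKM in the WT libraries, against 28.7, 17.5 and 4.07 in the mutant-labelled ones. Its groups overlapped by a narrow margin (log2 difference -1.74 ± 0.65, adjusted p = 0.361). Pparg, a lipid-sensing nuclear receptor of ILC2s, was at 2.01, 0.816 and 2.85 FPKM against 0, 1.08 and 0 FPKM (adjusted p = 0.521).

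The 9 receptors tested held 1 rise, Il9r, and no fall, beside 0.642% of all genes tested called higher and 0.108% lower. Il9r encodes the receptor of IL-9, an ILC2 survival factor, and gave 2.20, 2.81 and 0.515 FPKM across the 3 WT libraries and 21.9, 19.9 and 13.5 across the mutant-labelled ones (log2 difference 2.85 ± 0.50, limma adjusted p = 0.0376). That call was lost when any single library was left out (0.0575 to 0.163), with median-ratio rescaling (0.0638), with a replicate block (0.0764), with a pseudocount of 0.1 (0.0697) and without a filter (0.095). The receptors of the alarmins did not share a direction. Il1rl1, the IL-33 receptor, reached 3.24, 2.73 and 4.18 FPKM (WT) and 0.0799, 0.109 and 2.55 FPKM (mutant-labelled; log2 difference -1.42 ± 0.57, adjusted p = 0.421). Il17rb, the IL-25 receptor, was at 12.8, 13.1 and 13.7 FPKM against 2.94, 6.86 and 6.56 FPKM (-1.20 ± 0.43, adjusted p = 0.338). Crlf2, the TSLP receptor, was instead at 7.11, 8.98 and 8.56 FPKM against 23.2, 11.5 and 12.7 FPKM. None of these 3 passed. Their groups did not overlap, as for 6.56% of all genes tested in the lower and 8.67% in the higher direction. Mast cells also express Il1rl1, and the tryptase gene Tpsb2 was listed at 0 in the 3 mutant-labelled libraries and at 5.82, 3.66 and 17.5 FPKM in WT. In mutant-labelled replicate 3 Il1rl1 was at 2.55 FPKM, and the mast cell genes differed among themselves there. Tpsb2 and Cma1 were listed at 0 and Mcpt4 was at 0.0921 FPKM. Cpa3 was at 21.5 FPKM in that library, against 0.992 and 0.622 FPKM in mutant-labelled replicates 1 and 2. The part of mast cells in the Il1rl1 values was not tested. Il2ra, which encodes the CD25 used in the gate, was at 1.69 to 3.59 FPKM in the WT libraries and at 4.22 to 7.36 in the mutant-labelled libraries.

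**Figure D3:**
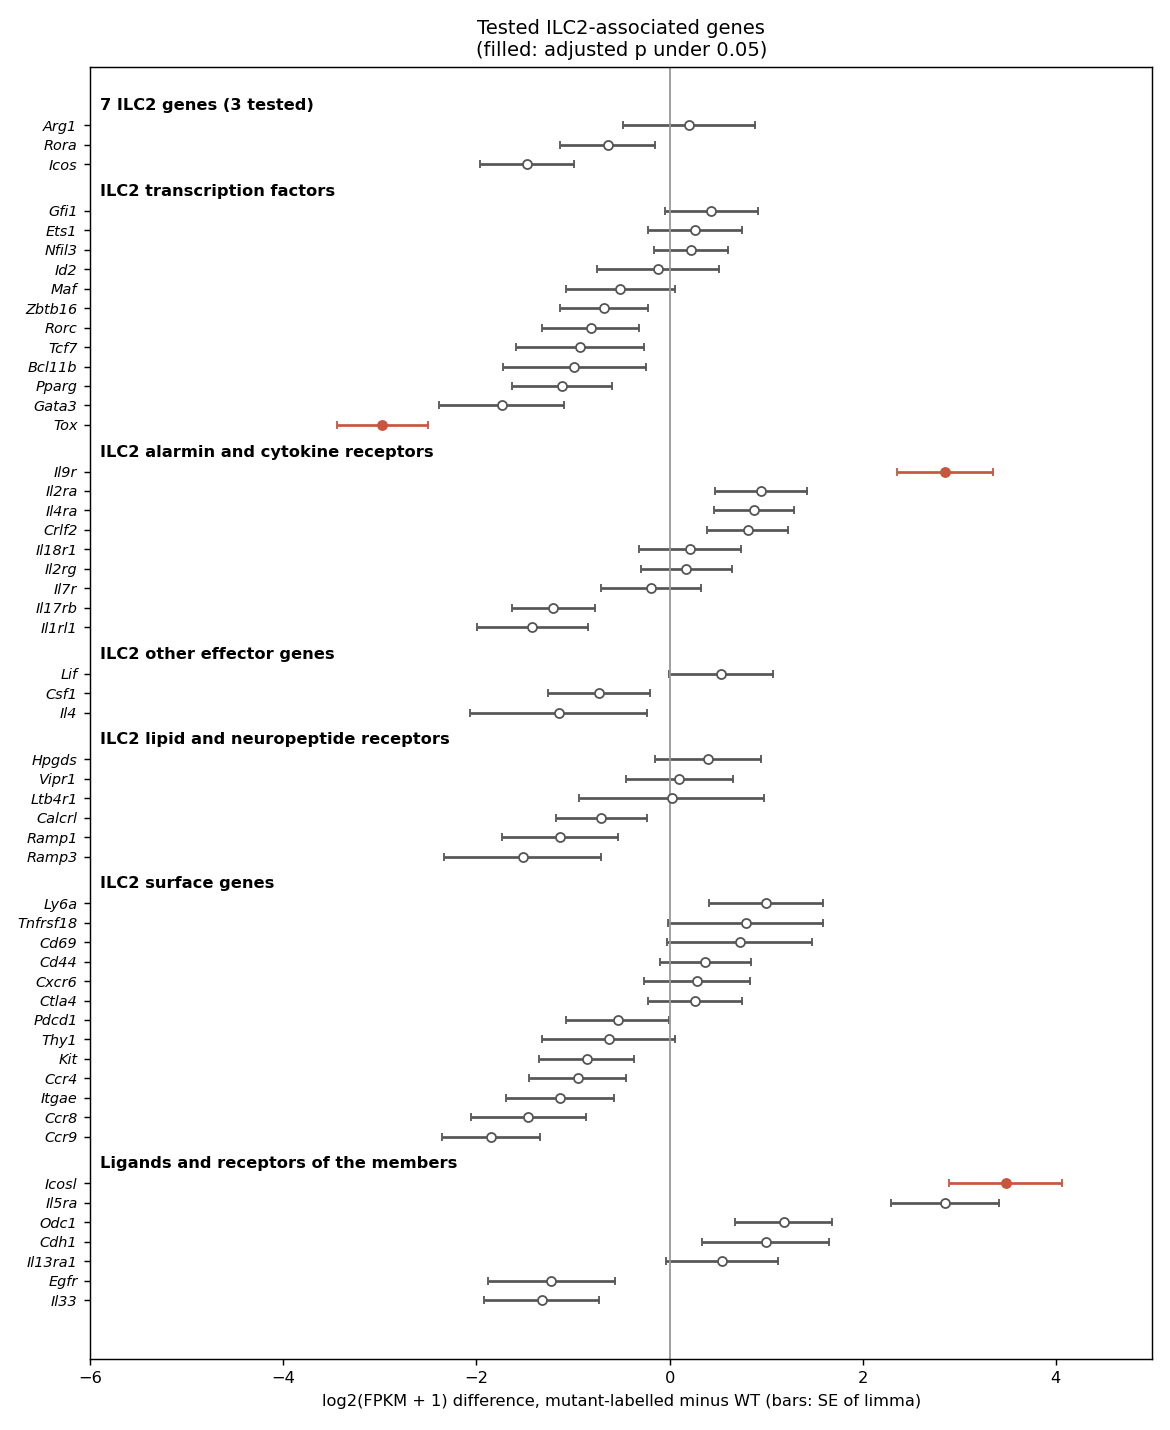
Log2(FPKM + 1) difference, mutant-labelled minus WT, of each tested gene of the ILC2 lists and of the ligands, receptors and related genes, with the SE of limma as bars. Filled red points passed an adjusted p under 0.05: Tox at -2.98, Il9r at 2.85 and Icosl at 3.48.

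Effector and surface genes gave no call. Of 9 other effector genes 3 were tested and 0 passed. Il4, the third cytokine gene of the type 2 locus, measured 0, 6.09 and 7.08 FPKM in the WT libraries, against 0, 0 and 4.27 in the mutant-labelled ones (limma adjusted p = 0.774), and Il9 and Il2 were listed at 0 in all 6 libraries. Of 6 lipid and neuropeptide receptor genes tested 0 passed. Ramp1, part of the receptor of the neuropeptide CGRP, was the most abundant, at 67.0, 43.6 and 125 FPKM against 28.8, 16.6 and 67.4 FPKM (adjusted p = 0.595). Of 14 surface genes 13 were tested, leaving out Tnfrsf4, which was read together with another gene at its locus, and 0 passed. Ccr9, a thymus and gut homing receptor, gave 79.1, 59.6 and 55.9 FPKM across the 3 WT libraries and 24.9, 25.3 and 7.73 across the mutant-labelled ones (log2 difference -1.85 ± 0.51, adjusted p = 0.179). Ccr8, a receptor of ILC2s and Th2 cells, was at 5.07, 2.38 and 7.89 FPKM against 1.75, 1.94 and 0.0757 FPKM (adjusted p = 0.428). Lif, Csf1, Ramp3, Calcrl and Itgae, the other genes named by the rule of smallest p in these lists, had adjusted p of 0.562 to 0.848.

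The genes whose pattern across the 6 libraries was most like that of each tested member were taken from 7092 others (7093 for Arg1) with a mean of at least 5 FPKM. Each r is the highest of a large number over 6 libraries, is given as a description, and these libraries share the group difference. For Icos they were Map2k7 (Pearson r = 0.984), Spint2 (0.979) and Slc9a9 (0.976), and Slc9a9 was at 37.0, 37.1 and 53.4 FPKM in the WT libraries and 31.4, 18.2 and 20.8 in the mutant-labelled libraries. For Rora they were C1qa (0.992), Zfp664 (0.987) and Ubtf (0.986). C1qa, a complement gene of macrophages, reached 8.53, 3.02 and 23.7 FPKM (WT) and 4.27, 1.46 and 1.73 FPKM (mutant-labelled), so that both peaked in WT replicate 3. For Arg1 they were Kmt2d (0.993), Setd1b (0.972) and Ints1 (0.968), which were high in WT replicate 2 and in mutant-labelled replicates 1 and 2.

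The summed level of the 7 genes was 23.1, 30.6 and 45.1 FPKM in the WT libraries and 19.9, 11.2 and 11.1 in the mutant-labelled libraries, and Icos alone made up 37.9% to 70.6% of it. The number of the 7 above 0 was 6, 5 and 5 in WT and 3, 4 and 4 in the mutant-labelled libraries.

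**Figure D4:**
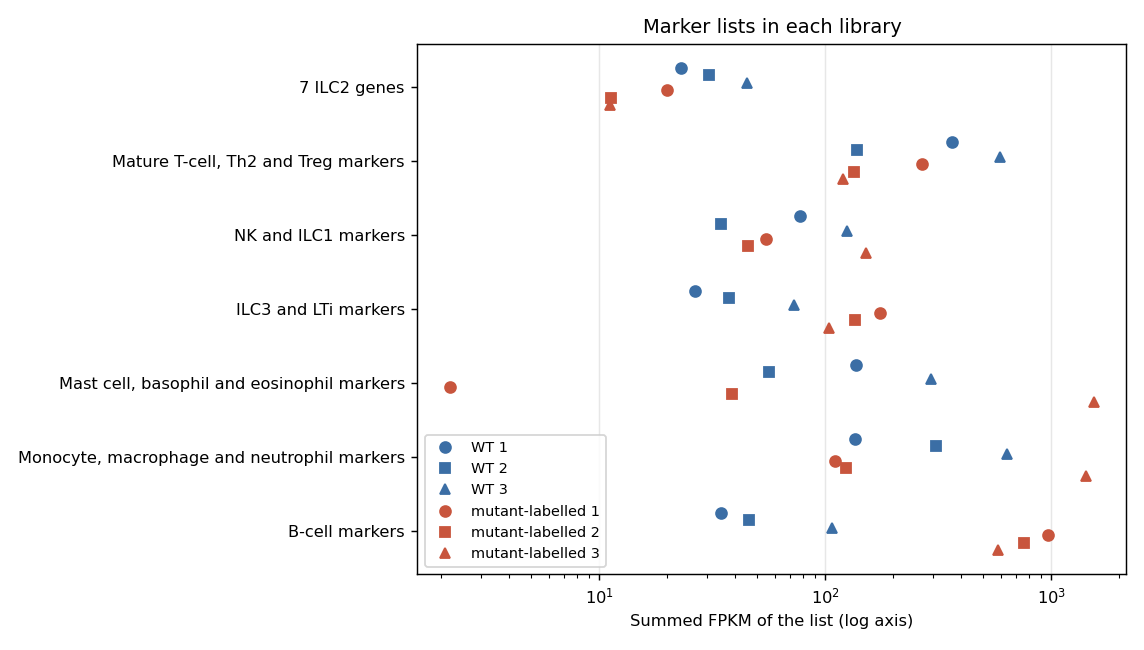
Summed FPKM of the 7 ILC2 genes and of marker lists of other cells in each library, on a log axis, with WT in blue and mutant-labelled in red and the replicate number as the symbol. The ILC2 genes (11.1 to 45.1) lay under the T-cell list (120 to 595) in every library, and B-cell markers (34.5 to 108 in WT, 582 to 966 in the mutant-labelled libraries) did not overlap between groups.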

How the data were processed

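RNA from 3 WT and 3 labelled Tle134-deficient DN1 libraries was analysed. The authors deposited FPKM per locus with lower and upper bounds, in the column layout of a Cufflinks gene tracking table, per the file headers. Trimmomatic 0.38, TopHat2 2.1.1, featureCounts 2.0.1 and mm9 are named, with no role, per the submitters' processing notes. No source used here gives the annotation or strand setting, so antisense or overlapping reads cannot be told apart. FPKM scales with each library's own total, and total reads are unknown.

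Tables were joined on symbol with Python 3.11.15 and pandas 2.3.3. Rows of a symbol were added, and symbols found together at 1 locus were merged and left out of list counts. Start positions were raised by 1. Genes at 1 FPKM or more in at least 3 libraries were tested on log2(FPKM + 1) with limma 3.58.1 in R 4.3.3 (group term, trend, robust), with Benjamini-Hochberg adjustment over all tested genes and a threshold of 0.05. Fold changes on this scale understate the change of low genes. The fit was tested on simulated data. With 3 against 3 libraries an exact two-sided permutation test cannot go below 0.1, so none was run.

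The members and lists were chosen with earlier results of these data known. Named genes are the members, Tle1, Tle3 and Tle4, up to 3 genes per list by smallest p with a mean of at least 1 FPKM in the higher group, and the 3 genes most correlated with each tested member. Crlf2, Il2ra, Cd3e, Prg2, Epx, Cma1, Prss34, Mcpt8, Gzma, Egfr, Il13ra1, Ncr1, Klrb1c, Il22, Gzmb, Retnla, Chil3 and genes listed at 0 were named after their values were seen. So were Ms4a2, Fcer1a, Mpo, S100a8, S100a9, Elane, Lyz2, Cd68, Fcgr1, Cd3d, Cd4, Cd5, Cd8b1, Il33 and Tslp. Alternatives were no filter, a pseudocount of 0.1, median-ratio rescaling, the largest row of a symbol, limma without trend and robust, a replicate block and leaving out each library.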

Additional observations from a re-analysis of the deposited data

How the results depend on the processing

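None of the 7 ILC2 genes was called under any of the 12 alternatives run, and the 1 at an unadjusted p under 0.05, Icos, became 0 without WT replicate 3 and without mutant-labelled replicate 2. Icos and Rora were lower in the mutant-labelled libraries under all 12, from -1.85 to -1.20 and from -0.95 to -0.29 on the log2 scale. Arg1 ran from -0.25 to 0.82 without single libraries, with values of -0.25, -0.10 and -0.12 where its direction turned. The number of genes called in all, 83, was 0 without a filter on low values (1181 at an unadjusted p under 0.05, against 1109), 53 with a pseudocount of 0.1, 55 with limma without trend and robust, 2 with a replicate block and 0 to 58 without single libraries (877, 951 and 956 at an unadjusted p under 0.05 in the 3 such runs with 0 calls). With median-ratio rescaling it was 76. Of the other ILC2-associated genes, 2 were called, against 0 without a filter, 1 with a pseudocount of 0.1, 1 with median-ratio rescaling, 0 with a replicate block and 0 without any single library. At an unadjusted p under 0.05 limma gave 5 to 9 of these genes in the runs with 0 calls, beside 877 to 1374 of all genes. Those runs tested 43 of these genes and 11063 in all, or 52 and 18943 without a filter. The cause of the lost calls was not tested. Leaving out a library also leaves fewer samples, and dropping the filter adds genes to the adjustment. The median of all genes moved from 0.04 to 0.19 without WT replicate 3 and to 0.10 without mutant-labelled replicate 2.

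In the labels, libraries with the same replicate number share only that number. Their deviations from the group means correlated at 0.084, 0.182 and 0.174. Each of the 6 libraries correlated best with its own number across groups. Implied fragments at loci with a symbol were 1.42e+06 (WT) and 1.51e+06 (mutant-labelled) for number 1. They were 3.21e+06 and 3.16e+06 for number 2, and 3.24e+06 and 4.34e+06 for number 3. These are hints from the data and not from the design. The part of fragment totals in the correlations was not tested. With the replicate block the log2 difference of Icos stayed at -1.47 (limma adjusted p = 0.314). Total reads are unknown, but the deposited intervals reach 50% of the value or more on either side for all values above 0 of Klrg1, Areg, Il13 and Il5, for 3 of 5 of Arg1 and for Rora in WT replicate 3.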

Other observations

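Genes of the other innate lymphoid groups were also read in these libraries. Of 6 ILC3 and LTi markers tested, 1 rose in the mutant-labelled libraries and 0 fell. Over all genes tested 0.642% were called higher and 0.108% lower. Cxcr5, a chemokine receptor that LTi cells share with follicular B cells, rose from 1.99, 0 and 6.04 FPKM to 63.8, 47.7 and 35.4 FPKM (log2 difference 4.14 ± 0.66, limma adjusted p = 0.0279). The call was kept without WT replicate 3 (0.0113) and lost without any other single library (0.0506 to 0.129), with a replicate block (0.0767), with a pseudocount of 0.1 (0.155) and without a filter on low values (0.0901). Ccr6, a receptor of LTi cells and B cells, was at 5.03, 4.57 and 18.5 FPKM against 74.2, 48.0 and 40.1 FPKM (adjusted p = 0.0694), and Il1r1, the IL-1 receptor, had a log2 difference of -1.28 (adjusted p = 0.336). Il22, the cytokine gene of ILC3s, measured 0, 0 and 4.48 FPKM in the WT libraries, against 4.41, 5.70 and 0.817 in the mutant-labelled ones, and the groups overlapped.

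Of 5 NK and ILC1 markers tested, 0 were called. Fasl, Klrd1 and Eomes were lower in each mutant-labelled library than in any WT library, as were 6.56% of all genes tested. Fasl and Klrd1 did not pass (limma adjusted p = 0.101 and 0.133). Eomes, a T-box factor of NK cells, gave 4.76, 1.09 and 2.78 FPKM across the 3 WT libraries and 0.0591, 0.142 and 0 across the mutant-labelled ones (log2 difference -1.75 ± 0.50, limma adjusted p = 0.203). Granzyme B, by contrast, reached 2.39, 8.06 and 9.36 FPKM (WT) and 15.0, 12.1 and 118 FPKM (mutant-labelled; adjusted p = 0.396).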
